A study of Homo sapiens with 2 samples.

Results

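Genes of the interferon response and of class I antigen presentation were followed in Hep 3B cells after inhibition of miR-19b. The set was a list of 57 genes, and its members were the probes whose single gene symbol, updated by gene identifier, was on that list. Of the 57 genes, 56 had a named probe, of 18821 genes named on the array, with 84 of its 29187 probes. STAT2 had no named probe in the annotation used here and was not analysed here. Hep 3B is a human hepatocellular carcinoma cell line, which carries integrated hepatitis B virus sequence. The anti-miR-19b sample came from Hep 3B cells given the miR-19b inhibitor, and the control sample came from the same line given the control of that inhibitor. The amount was 90 pmol per well in both, and the cells were harvested for RNA at 24 h. Both samples therefore share the lipid transfection of an oligonucleotide and the serum-containing medium, and no untransfected cells and no cells given interferon were among the samples. The series holds 1 array per condition, so that no test could be made, no replicate error exists and every ratio describes these 2 arrays.

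Viral RNA in the cytoplasm is read by RIG-I (RIGI) and MDA5 (IFIH1), which signal through the mitochondrial adaptor MAVS, and double-stranded RNA in endosomes is read by TLR3. The interferons that follow bind paired receptor chains and switch on genes through STAT proteins and interferon regulatory factors, among them the complex of STAT2 with IRF9 that binds the interferon-stimulated response element. The induced genes encode antiviral effectors and also raise class I antigen presentation, in which peptides cut by the immunoproteasome are carried by TAP into the endoplasmic reticulum, trimmed by ERAP1 and ERAP2, and loaded on HLA heavy chains with beta-2-microglobulin. Liver cells respond to type I interferon, which has long been used against viral hepatitis.

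The microRNA that the inhibitor is directed against is shown here because it is the only difference between the samples that the labels name, together with miR-19a, which has the same seed. The mature sequences are those of RefSeq (GRCh38.p14), and the capitals mark the seed, bases 2 to 8.
hsa-miR-19b-3p: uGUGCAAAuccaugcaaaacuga
hsa-miR-19a-3p: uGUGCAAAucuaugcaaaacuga
miR-19b is encoded at chr13:91351245-91351267 on the plus strand and again at chrX:134169683-134169705 on the minus strand, and miR-19a at chr13:91350939-91350961 on the plus strand. The arrays read mRNA and give no value for either mature microRNA.

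The values were normalized intensities on a linear scale. Their median was 26.0 for the control and 28.1 with anti-miR-19b. A probe is called bright here when the geometric mean of its 2 intensities was at or above 41.4, the median of the 26186 probes above 0 on both arrays. A probe is near the floor when it read below 5.22 for the control and also below 4.95 with anti-miR-19b, which is percentile 95 of the size of the negative values on each array. The log2 ratio was taken as anti-miR-19b over control. Its spread (the distance from percentile 16 to 84, divided by 2) was 0.26 over all bright probes. It was 0.87 over all compared probes that were not bright, those near the floor included. These spreads stood in for an error, but the scatter depended on level. Percentiles 16 and 84 were -3.24 and 3.55 around a geometric mean of 1.12, and -0.40 and 0.63 around 36.4. Other compared probes are called dim. Some dim probes read under the floor on 1 array, and their ratios carry no weight. All 9 hepatocyte and hepatoma markers with a named probe had a bright probe, among them ALB (14382 on the control array and 15550 with anti-miR-19b) and GPC3 (33954 and 30459). The summed intensity of 5 leukocyte markers was 274 on the control array and 228 with anti-miR-19b. PTPRC, which defines leukocytes, read 2.68 and -1.09 at one probe and 6.70 and 7.46 at the other, while CD14, ITGAM and NKG7 had bright probes, at most 135 on either array. CDH5 of 3 endothelium markers (60.9 and 59.0) and COL1A1 of 3 fibroblast markers (61.4 and 56.6) had a bright probe too. Bright is thus a class of intensity and does not by itself show that a gene is expressed. The part of these markers in the results was not tested.

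Across the 84 member probes, 77 were above 0 on both arrays and could be compared. Of these, 56 were within 1.5-fold, 13 were over 1.5-fold higher with anti-miR-19b and 8 were over 1.5-fold lower. Over all probes of the array, 13.8% were over 1.5-fold higher and 12% over 1.5-fold lower, against 16.9% and 10.4% of the member probes. Of the 21 member probes past the threshold, 20 were dim or near the floor. Among the 45 bright member probes, 1 was over 1.5-fold higher and none was lower, where 2.41% of all bright probes were higher and 1.05% lower. With quantile normalization or removal of the trend with level, 1 bright member probe, that of ERAP2, was over 1.5-fold lower. The bright member probes had a median log2 ratio of -0.010, and all bright probes had one of 0.026.

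**Figure D1:**
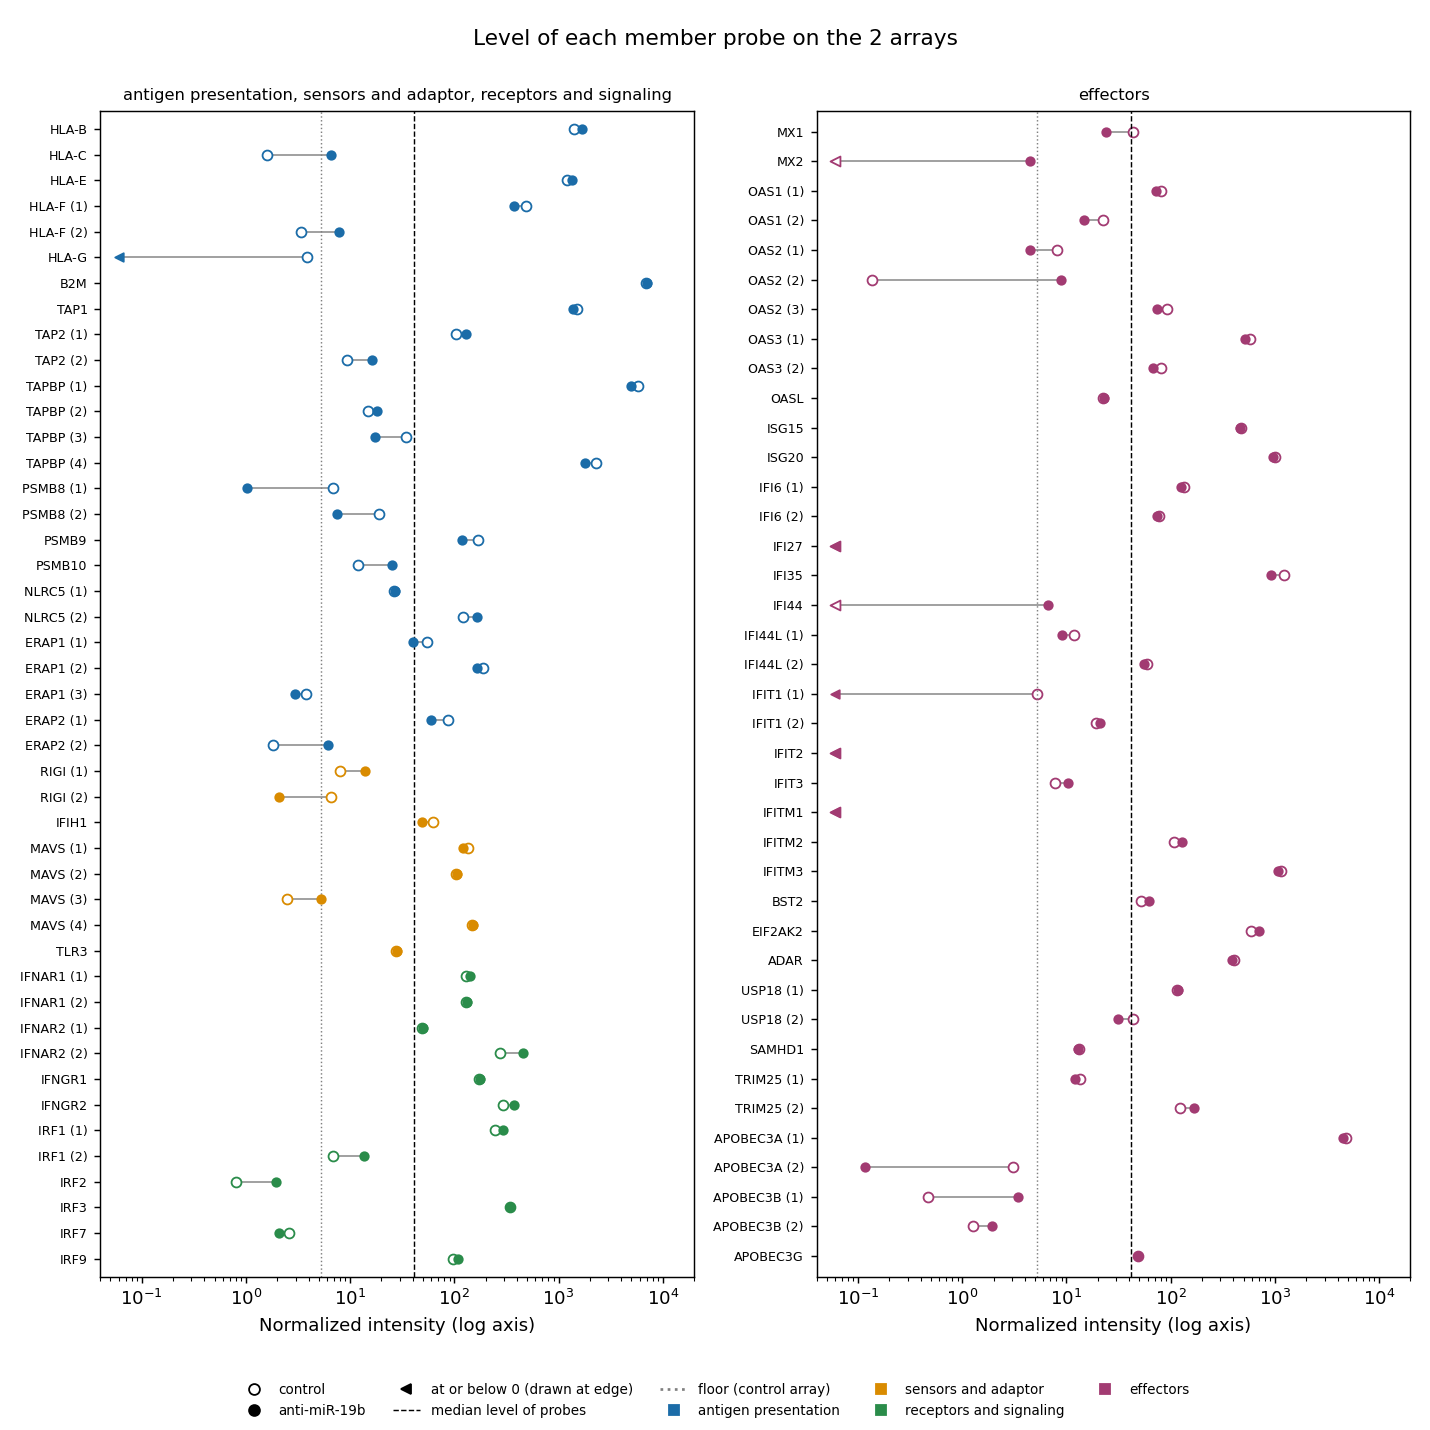
Normalized intensity (log axis) of all 84 member probes, control array (open symbols) and anti-miR-19b array (filled symbols), with the probe's number in brackets where a gene has several; triangles at the left edge are values at or below 0, the dashed line is the median level of 41.4 and the dotted line the floor of the control array, 5.22. Most pairs to the right of the dashed line lie close together and the wide gaps lie to the left of it, and levels of different probes are not to be compared.

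**Figure D2:**
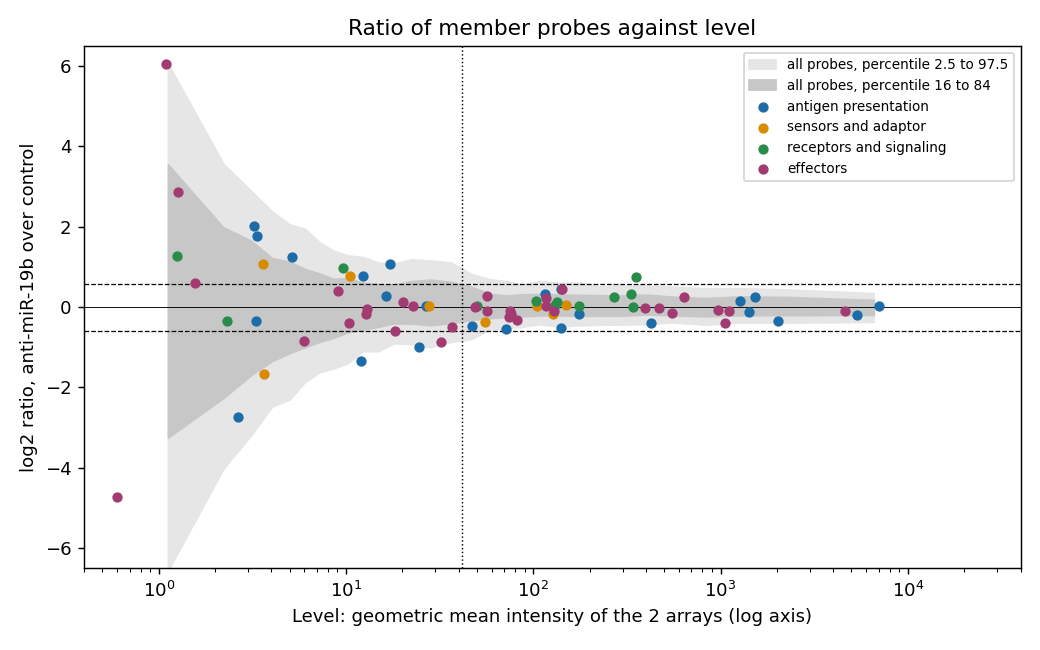
Log2 ratio of the 77 compared member probes against their level (geometric mean intensity, log axis), coloured by role; the shaded bands hold the central part of all probes in 30 bins of level, the dashed lines mark 1.5-fold and the dotted line the median level. To the right of the dotted line 1 point, IFNAR2, lies outside the dashed lines.

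The interferon-stimulated response element was looked for in the promoters, because STAT2 with IRF9 and the interferon regulatory factors act through it and because it ties together genes of different roles here. RefSeq promoters (GRCh38.p14), 250 bases before to 50 after the start of each gene, were at hand for 42 of the 57 members. The motif GAAANNGAAA, searched on both strands, was in 23 of these 42 promoters (54.8%) and in 501 of 15843 promoters of protein-coding genes (3.16%). By role it was in 14 of 19 effectors, 7 of 13 antigen presentation genes, 2 of 4 sensors and 0 of 6 receptors and signaling genes. The stretches below are all printed on the strand of the gene, with the motif or its reverse complement in capitals. They come from genes with a bright probe (ISG15, ISG20, OAS3, TAP2, B2M) and from genes with no bright probe (IFIT1, IFITM1, IFI27, PSMB8).
ISG15: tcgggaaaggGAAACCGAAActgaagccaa
ISG20: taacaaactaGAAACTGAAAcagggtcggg
OAS3: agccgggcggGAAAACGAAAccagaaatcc
TAP2: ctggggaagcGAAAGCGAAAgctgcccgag
B2M: ctaagaaaagGAAACTGAAAacgggaaagt
IFIT1: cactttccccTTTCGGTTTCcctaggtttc
IFITM1: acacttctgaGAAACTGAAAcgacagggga
IFI27: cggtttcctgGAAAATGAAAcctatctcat
PSMB8: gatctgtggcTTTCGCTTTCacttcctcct
These stretches lie on the plus strand at chr1:1013380-1013409 for ISG15, chr15:88638937-88638966 for ISG20, chr12:112938452-112938481 for OAS3, chr15:44711369-44711398 for B2M, chr10:89392510-89392539 for IFIT1, chr11:314024-314053 for IFITM1 and chr14:94110631-94110660 for IFI27. On the minus strand lie those of TAP2 (chr6:32838778-32838807) and PSMB8 (chr6:32844032-32844061). Of the 23 genes with the motif, 14 had a bright probe, with log2 ratios from -0.40 to 0.32, 4 above 0 and 10 below, and a median of -0.093. Of the 19 genes searched without it, 14 had a bright probe, with ratios from -0.55 to 0.44, 7 above 0 and 7 below, and a median of 3.59e-05. Over all bright probes 53.9% were above 0 and 46.1% below. A second motif, TTCNNNGAA, was searched in the same promoters. It was in 10 of 42 members (23.8%), among them 2 of 6 receptors and signaling genes. Over protein-coding genes it was in 1103 of 15843 promoters (6.96%). Members were listed for their part in these pathways, so that the share of neither motif is a result of these arrays. A match of letters is no measured binding site.

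The receptors and signaling genes held the single bright member over 1.5-fold. IFNAR2, the chain of the type I interferon receptor that binds interferon with high affinity, read 275 on the control array and 459 with anti-miR-19b at one probe. This log2 ratio of 0.74 lay at percentile 99.8 of the 500 probes nearest in level, and it stayed between 0.65 and 0.71 under the 4 other scalings tried. At its other probe IFNAR2 read 49.4 on the control array and 50.3 with anti-miR-19b, a log2 ratio of 0.03 at percentile 44.6. The probes of IFNAR2 thus disagreed, and the mean over both was 0.38, within 1.5-fold. The study had selected IFNAR2 on these same arrays for its ratio, so that the value is not independent of that choice. In RefSeq the gene is overlapped by a read-through transcript, IFNAR2-IL10RB, and the annotation used here does not say which transcripts each probe reads.

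IFNAR1, the partner chain, read 129 and 140 at one probe and 129 and 133 at the other (control first, here and below), with log2 ratios of 0.12 and 0.04. The chains of the interferon gamma receptor gave 0.03 for IFNGR1 (174 and 178) and 0.34 for IFNGR2 (295 and 372). IFNAR2, IL10RB, IFNAR1 and IFNGR2 follow one another on chromosome 21, apart from the read-through transcript, and IL10RB, a shared chain of the interferon lambda and interleukin 10 receptors that was no member, had 0.46 and 0.55 at its probes. All bright probes of this block were above 0 in the values as deposited, and ranged from the lower to the higher ratio of the IFNAR2 probes. This depended on the scaling. The dimmer IFNAR2 probe fell to -0.061 with quantile normalization and to -0.040 with the trend removed. The spread of single bright probes, 0.26, covered all but IFNGR2, IL10RB and the brighter IFNAR2 probe. That spread is pooled over levels, and the scatter depended on level. Among the probes nearest in level, IL10RB lay only at percentiles 77 and 86.6 and IFNGR2 at 86. Of this block, only the brighter IFNAR2 probe, at percentile 99.8, stood far out from probes of its level.

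IRF3, the factor that RNA sensing activates, read 340 and 341, a log2 ratio of 0.0060. IRF9, the DNA-binding partner of STAT2, read 97.98 and 109 (0.16). IRF1, which interferon gamma induces, read 248 and 296 at its bright probe (0.26) and 6.90 and 13.6 at a dim one (0.97). None of these bright probes moved beyond the spread of bright probes. IRF2, an antagonist of IRF1, read 0.805 and 1.94, and IRF7, the amplifier of the type I response, read 2.61 and 2.06, so that both lay near the floor and their ratios carry no weight. All 9 bright probes of receptors and signaling genes were above 0, where 53.9% of all bright probes were. That count depended on the scaling. It was 8 with median centring, 5 with quantile normalization and 6 with the trend removed.

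Among the sensors and their adaptor, IFIH1 and MAVS had bright probes and RIGI and TLR3 were dim. IFIH1 read 62.4 and 48.5, a log2 ratio of -0.36 at percentile 11.8 of the nearest probes. MAVS was read by 3 bright probes, at 136 and 120, 103 and 105, and 147 and 152, with ratios of -0.17, 0.03 and 0.05. They lay within the spread of bright probes, and the remaining probe of MAVS, at 2.48 and 5.21, was dim. RIGI was dim at both probes, which went opposite ways: 8.04 to 13.8 at one and 6.49 to 2.06 at the other. The value of 2.06 lay under the floor of 4.95. TLR3 was dim and level, at 27.3 and 28.1. No sensor therefore had a bright probe past 1.5-fold, where 2.41% of all bright probes were higher and 1.05% lower.

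Among the 28 effectors, 17 had a bright probe and none of their 19 bright probes was over 1.5-fold either way. The shares over all bright probes were 2.41% higher and 1.05% lower, so that few were to be looked for among 19. ISG15, a ubiquitin-like modifier made in large amounts after interferon, read 471 and 467, a log2 ratio of -0.010. USP18, the protease that takes ISG15 off proteins, read 116 and 118 (0.03) at its bright probe and 43.9 and 30.9 (-0.51) at a dim one. TRIM25, a ubiquitin ligase that acts on RIG-I, read 123 and 167 (0.44, percentile 91.2) at its bright probe and 13.6 and 12.0 at a dim one. The 3 genes of the ISG15 and ubiquitin branch so held the even ISG15 and the highest bright effector ratio, that of TRIM25.

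The OAS enzymes make the oligoadenylate that activates RNase L, and OAS1, OAS3 and OAS2 are neighbours on chromosome 12. At bright probes OAS1 read 81.2 and 72.1 (-0.17) and OAS2 read 91.9 and 73.2 (-0.33). OAS3 was read by 2 bright probes, at 580 and 521 (-0.16) and at 80.8 and 67.9 (-0.25). All 4 bright OAS probes were below 0, none past 1.5-fold. The other probes were dim and scattered: OAS1 at 22.4 and 14.9 was over 1.5-fold lower, OAS2 at 8.04 and 4.46 likewise, and OAS2 at 0.135 and 8.95 counted as over 1.5-fold higher. The control value of that last probe lay under the floor of 5.22, so that its ratio carries no weight. The same holds for the OAS2 probe at 4.46 with anti-miR-19b, under the floor of 4.95. OASL, a relative without that enzyme activity, was dim at 22.6 and 22.9.

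The bright probes of other effectors that act on RNA or DNA were all within 1.5-fold. EIF2AK2, the kinase PKR, read 587 and 697 (0.25), and ADAR, which edits adenosine in double-stranded RNA, read 401 and 391 (-0.034). ISG20, an exonuclease, read 999 and 951 (-0.072). SAMHD1, which depletes nucleotides, was dim at 13.1 and 12.8. The APOBEC3 genes encode cytidine deaminases of like sequence that lie together on chromosome 22. APOBEC3G read 48.8 and 48.7. APOBEC3A was at 4775 and 4455 at one probe (-0.10) and at 3.08 and 0.117 at the other, while both probes of APOBEC3B were near the floor, at 0.469 and 3.40 and at 1.27 and 1.91. The probes of APOBEC3A therefore differ over whether the gene is read at all, on both arrays alike, and cross-hybridization among these genes was not tested.

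Of the membrane proteins that block entry or release of viruses, IFITM3 read 1146 and 1072 (-0.10), IFITM2 read 108 and 128 (0.24) and BST2, or tetherin, read 51.4 and 62.0 (0.27). IFITM1, the neighbour of IFITM2 and IFITM3, was below 0 on both arrays, at -1.14 and -2.46. The IFITM genes are close copies, and how far each probe tells them apart is not known here. MX1, a GTPase against RNA viruses, read 43.6 and 23.8 at a dim probe. This log2 ratio of -0.87 (over 1.5-fold lower) lay at percentile 1.8 of the nearest probes. MX2 read -2.28 and 4.49.

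The IFI and IFIT genes, which serve widely as a readout of type I interferon, were bright in IFI6, IFI35 and IFI44L and dim or below 0 in the others. IFI27 read -1.07 and -1.46, IFI44 read -6.43 and 6.64, and IFIT2 read -2.48 and -3.55. IFIT1, which binds RNA that lacks the host cap methylation, read 5.16 and -0.0879 at one probe and 19.4 and 21.0 at the other, and IFIT3 read 7.83 and 10.4. No IFIT probe was bright. In contrast IFI6, a mitochondrial and endoplasmic reticulum protein, had 2 bright probes at 133 and 125 and at 77.7 and 73.1, both with a ratio of -0.09. IFI44L read 59.1 and 54.9 (-0.11) at its bright probe and 11.9 and 9.01 at a dim one. IFI35, a partner of NMI, had the lowest ratio of the bright effectors, 1213 and 919 (-0.40, percentile 3.4). Of the 19 bright effector probes 14 were below 0 (15 with quantile normalization or the trend removed), where 46.1% of all bright probes were, and their median was -0.088, where that of all bright probes was 0.026.

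**Figure D3:**
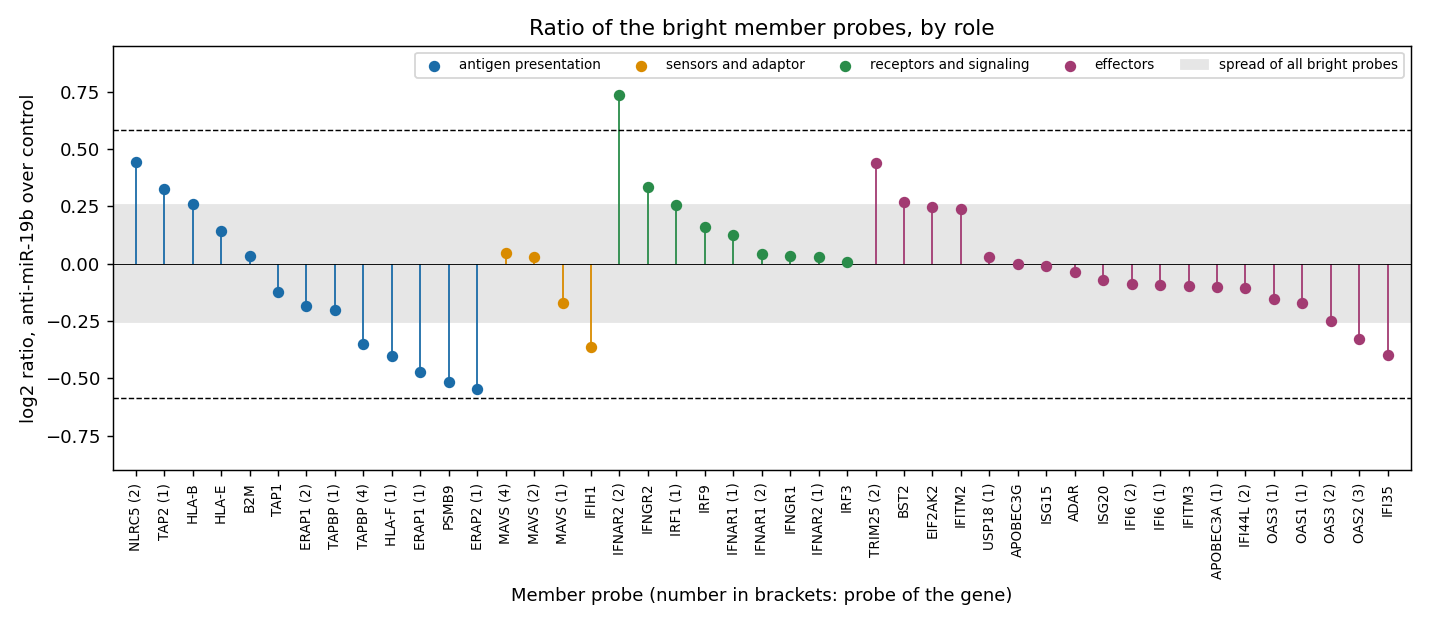
Log2 ratio, anti-miR-19b over control, of the 45 bright member probes, ordered by role and then by ratio; dashed lines mark 1.5-fold and the grey band is the spread of all bright probes, 0.26 either way. IFNAR2 at 0.74 is the only point outside the dashed lines, and ERAP2 at -0.55 and PSMB9 at -0.51 come nearest to the lower one.

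Of the 15 class I antigen presentation genes 11 had a bright probe, and none of their 13 bright probes passed 1.5-fold. Among all bright probes 2.41% were over 1.5-fold higher and 1.05% lower, so that few were to be looked for among 13. B2M, the light chain shared by all class I molecules, read 6962 and 7122, a log2 ratio of 0.033. Of the heavy chains, HLA-B read 1399 and 1678 (0.26), and HLA-E, which presents leader peptides to NK cells, read 1211 and 1335 (0.14). HLA-F read 492 and 372 at its bright probe (-0.40, percentile 3.2) and 3.35 and 7.89 at a dim one. So the bright heavy chains went both ways, each within 1.5-fold. HLA-C was read by a single probe at 1.61 and 6.55, and HLA-G, the chain of the placenta, by one at 3.88 and -0.0879. HLA genes are alike in sequence and differ between people, and whether these probes match the alleles of Hep 3B was not tested, so that a low value here does not show a low level of HLA-C.

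The peptide transporter and its bridge to class I were bright. TAP1 read 1488 and 1367 (-0.12), and TAP2 read 103 and 129 at its bright probe (0.32) and 9.37 and 16.1 at a dim one (0.78, over 1.5-fold higher). TAPBP, or tapasin, had 2 bright probes, at 5744 and 4996 (-0.20) and at 2284 and 1792 (-0.35, percentile 4.8). These 2 probes shared a direction, within 1.5-fold, while its dim probes went from 14.8 to 18.0 and from 34.7 to 17.5.

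The immunoproteasome subunits PSMB8, PSMB9 and PSMB10 replace the constitutive catalytic subunits after interferon. PSMB9 read 168 and 117 at its only probe, a log2 ratio of -0.51 at percentile 2.0 of the nearest probes, and just within 1.5-fold. PSMB8 was dim at both probes, and lower with anti-miR-19b at both, from 6.83 to 1.03 and from 19.1 to 7.55. The value of 1.03 lay under the floor of 4.95, so that only the other probe was above the floor on both arrays. PSMB10 went the other way at a dim probe, from 11.9 to 25.0. TAP2, PSMB8, TAP1 and PSMB9 stand in a row on chromosome 6, and their ratios differed in direction, with TAP2 above 0 and the others below. The constitutive subunits PSMB5, PSMB6 and PSMB7, which were no members, were bright at all 6 probes, with ratios from -0.11 to 0.29.

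The aminopeptidases ERAP1 and ERAP2 are neighbours on chromosome 5. ERAP2 read 86.9 and 59.4 at its bright probe, a log2 ratio of -0.55 at percentile 2.2, and -0.59 with quantile normalization and -0.60 with the trend removed, which passes 1.5-fold. Its other probe, at 1.81 and 6.15, was dim and went up. ERAP1 read 55.2 and 39.8 at one bright probe (-0.47) and 187 and 165 at the other (-0.18), and 3.75 and 2.94 at a probe near the floor. The bright probes of both genes were lower with anti-miR-19b. NLRC5, the transactivator of class I genes, read 121 and 164 at its bright probe (0.44, percentile 91.8) and 26.4 and 27.1 at a dim one (0.04). Of the 13 bright antigen presentation probes 8 were below 0 and 5 above, with a median of -0.18. Over all bright probes 46.1% were below 0, with a median of 0.026. The median over genes changed sign with the probes used: it was 0.19 over all probes of 14 genes and -0.12 over the bright probes of 11 genes.

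Genes of the same pathways outside the list were counted in the same way. Of 111 such genes, listed with earlier results of these data known, 106 had a named probe. Of their 131 compared probes 18 were over 1.5-fold higher, 14 lower and 99 within. That was 13.7% higher and 10.7% lower, against 13.8% and 12% of all probes compared. Of their 63 bright probes 2 were higher and none lower, where 2.41% of all bright probes were higher and 1.05% lower. The counts of the lists below are to be read beside these shares. Their bright probes had 44 above 0 and 19 below and a median of 0.073, where the members had 21 above and 24 below. Over all bright probes 53.9% were above 0, with a median of 0.026. Other induced genes had 18 bright probes above 0 and 6 below, where the effectors of the list had 5 above and 14 below. Some of the 18 lay barely above 0: probes of IFI30 (0.0041), ZC3HAV1 (0.0082), BATF2 (0.0098), SLFN11 (0.017) and CXCL10 (0.019). These ratios were under 0.028, the median of all probes compared, and median centring puts them below 0. That count therefore depended on the scaling. The bright probes over 1.5-fold higher were those of LAP3 and TRIM14. LAP3, an aminopeptidase induced by interferon gamma, read 223 and 344 (0.63, percentile 99.2). TRIM14, an adaptor of MAVS signaling, read 66.0 and 102 (0.62) at its bright probe. LAP3 had a single probe and is another gene that the study selected on these arrays. TRIM14 was also higher at its dim probe, from 18.8 to 43.3, so that here the probes shared a direction.

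Interferon ligands were dim at 9 of 11 probes. IFNB1 read 26.0 and 16.1, and the highest and lowest genes, IFNG (1.07 and 9.46) and IFNK (9.11 and 2.37), read low on at least one array. IFNL1 had a bright probe at 54.0 and 50.3, but its other probe read -3.28 and 0.088. Among 12 receptor kinases and regulators none of 12 bright probes passed 1.5-fold, with JAK1 at -0.20 and TYK2 at -0.12 at bright probes. JAK2 (1.01, from 11.5 to 23.2) and SOCS3, whose probes gave 0.22 and -1.15, were the highest and lowest genes at dim probes. Of 15 other sensors and their kinases, TLR8 was highest (16.2 and 22.9) and CGAS lowest (10.8 and 3.00), both dim, and the kinase TBK1 read 4790 and 5135 (0.10). STING1 read 59.7 and 58.2.

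Among 42 other induced genes with a probe, 17 had a bright probe. RSAD2 read 8.37 and -2.03, GBP1 read 3.82 at both probes on the control array and below 0 with anti-miR-19b, and CXCL10 had a bright probe that stayed level at 85.1 and 86.2. CXCL11 (0.735 and 2.94) and SLFN5 (3.01 and 0.913 at the probe compared) had the highest and lowest gene ratios, both near the floor on both arrays. Of the peptide loading genes and class I regulators 12 probes were bright and none passed 1.5-fold, with CALR at 535 and 544 and PDIA3 at 431 and 405 at its bright probe. Their genes ranged from TAPBPL (49.1 and 31.1, dim) to MICA (4.62 and 6.95, dim). Class II genes were bright at 2 of 12 probes, those of HLA-DRA (172 and 198) and HLA-DOB (85.4 and 78.0). Their transactivator CIITA read 4.82 and 4.34, near the floor, and HLA-DPA1 (0.64) and HLA-DMA (-0.29) were the highest and lowest genes, both dim. In bulk RNA, fewer cells that express a gene and less RNA per cell cannot be told apart, which holds for every value above.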

How the data were processed

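The authors labeled RNA with 1 dye (Cy5 per the labels, fluorescein in the methods), hybridized it to Human OneArray and deposited normalized intensity values, linear and partly below 0, 1 for each probe of each array. How they were normalized is not stated in the labels or methods. The extraction text in the labels describes liver tissue. Of 29187 probes 25053 carry 1 gene symbol, 0 several and 4134 none, and 24981 symbols were updated by gene identifier (RefSeq, GRCh38.p14). The log2 ratio used the 26186 probes above 0 on both arrays, leaving out 3001. A gene was the mean of its probes. Every member was accounted for, and values are printed for members with a bright probe or a probe over 1.5-fold, and of the other lists for bright probes over 1.5-fold and the highest and lowest gene; the remaining other genes were chosen after their values were seen. Members and lists were chosen with earlier results of these data known. Percentiles rank a probe among the 500 nearest in level. No test was run, since a condition has 1 array, and the number of arrays limits the precision. Alternatives were median centring, quantile normalization, loess trend removal (fraction 0.3), bright probes alone, an offset of 50, a 2-fold threshold, genes for probes and the brightest probe. The log2 ratio, as deposited and with median centring, quantile normalization or loess, was tested on simulated data with shifts put on bright probes alone. The classes, percentiles, offset and motif search were not part of that test. Python 3.11.15, numpy 2.4.6, pandas 2.3.3, statsmodels 0.14.6 and matplotlib 3.10.9 were used. Results for a withheld item are not reported here.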

Additional observations from a re-analysis of the deposited data

How the results depend on the processing

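No paired analysis was possible because there was 1 array for anti-miR-19b and 1 for the control. The counts of member probes over 1.5-fold higher and lower, 13 and 8, stayed within 1.5 times under median centring, quantile normalization and loess trend removal. Restricting to bright probes gave 1 and 0. Adding the offset of 50, which shrinks dim ratios by construction, also gave 1 and 0. The 2-fold threshold left 8 and 4, and counting genes, as means of their probes, left 7 and 3. The median of antigen presentation genes, 0.19, was -0.12 over bright probes alone, -0.10 with the offset and -0.045 at the brightest probe of a gene. The median of the 4 sensor genes, -0.16, was 0.0050 with the offset and 0.042 at the brightest probe. The medians of all members (0.033), of receptors and signaling genes (0.16) and of effectors (-0.034) moved by at most 0.1 log2 units under every alternative run. That limit is larger than 2 of these medians. The median of all members changed sign, to -0.032 with quantile normalization, -0.021 with the trend removed and -0.010 over bright probes alone. The median of receptors and signaling genes fell to 0.060 with the offset. Chosen after seeing the data, leaving out the OAS2 probe read at 0.135, or all probes near the floor, moved no median by more than 0.1. By the floor 12 member probes were low on both arrays, and 39 were low when a mean level below the median was used in place of the floor.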
